A study of Mus musculus with 12 samples.

Results

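Neuropeptide genes encode precursor proteins that neurons cut into small signalling peptides, and 10 of them that are well known from the hippocampus were examined: Sst, Npy, Vip, Cck, Penk, Pdyn, Tac1, Tac2, Crh and Adcyap1. They were taken by name from the 48709 genes counted by poly(A) RNA sequencing in 12 mouse cultures. The cultures were primary hippocampal cells of CD1 embryos of embryonic day 17, with hippocampi of several embryos pooled before plating, and they held neurons together with glia. At day in vitro (DIV) 10 the cells received lipid nanoparticles loaded either with a mimic of miR-148a-3p (6 cultures, called the mimic group) or with a negative control RNA (6 cultures, the control group), and they were harvested 48 h later at DIV 12. According to the study's methods ApoE4, a variant of the lipid carrier apolipoprotein E, was added in both groups, so it was shared by every library compared here. The nanoparticles were added to the whole dish and not to 1 cell type, and nothing in the sources used here says that the 12 cultures were separate preparations. The p-values therefore measure the spread between these samples, which may be technical.

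Neuropeptide precursors are made in the endoplasmic reticulum, packed into dense-core vesicles, cut by prohormone convertases and released on strong activity to act on G protein-coupled receptors. In the hippocampus most of these genes mark particular cells. Sst, Npy, Vip and Cck are used to tell apart classes of GABAergic interneurons, Cck is also made by pyramidal neurons, Pdyn is known from dentate granule cells, and Penk is expressed by interneurons, by some principal neurons and by cultured astrocytes. A microRNA acts by pairing of its seed, bases 2 to 8 from its 5′ end, with matching sites in the 3′ untranslated region (3′ UTR) of messenger RNAs.

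The sequences delivered to the cells are shown first because the seed sets which messenger RNAs can pair with each oligonucleotide. The mature miR-148a-3p of RefSeq, encoded on the minus strand at chr6:51269829-51269850 of mm10, has the same 22 bases as the listed mimic. The second sequence is the negative control of the study's reagent list, taken here to be the one used. Capitals mark the seed.
miR-148a-3p mimic: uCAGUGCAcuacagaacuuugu
negative control: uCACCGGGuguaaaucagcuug

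Among the 10 neuropeptide genes Pdyn alone had a match to the mimic seed in its longest annotated 3′ UTR, and none had a match to the seed of the negative control. The Pdyn site began at base 948 of a 3′ UTR of 1436 bases and matches seed bases 2 to 8. It is shown with its flanking bases, on the sense strand, with the 7 matching bases in capitals.
Pdyn 3′ UTR site: ggcccagcgtaTGCACTGgcactgggaag
The motifs searched were TGCACTG and GCACTGA for the mimic, on the transcript strand, and overlapping matches were counted as 1 site. Of 15082 tested genes with an annotated 3′ UTR, 3307 (21.9%) held a mimic match and 666 (4.42%) a match to the control seed. The other members have short 3′ UTRs, from 156 bases in Sst to 851 bases in Vip, except for Adcyap1 with 2410 bases. A match is a property of the letters and was not tested for pairing.

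Promoters of 3 members are shown as well, because a cyclic AMP response element (CRE), the binding site of CREB, is a textbook feature of several peptide genes. RefSeq promoters of mm10, 250 bases before to 50 after the start site, were found for 8 of the 10 members, without Penk and Crh. The promoter of Cck lies on the minus strand at chr9:121495645-121495944, that of Sst on the minus strand at chr16:23890795-23891094, and the first of 2 Pdyn promoters on the minus strand at chr2:129699889-129700188. Capitals mark the palindromic CRE TGACGTCA or its 5-base core CGTCA, searched on both strands; the palindrome contains the core on each strand.
Cck promoter: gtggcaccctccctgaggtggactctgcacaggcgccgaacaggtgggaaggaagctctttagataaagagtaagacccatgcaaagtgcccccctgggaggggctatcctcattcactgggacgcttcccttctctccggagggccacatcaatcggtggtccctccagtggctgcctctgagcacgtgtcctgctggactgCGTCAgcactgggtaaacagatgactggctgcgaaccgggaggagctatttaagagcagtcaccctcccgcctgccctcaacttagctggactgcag
Sst promoter: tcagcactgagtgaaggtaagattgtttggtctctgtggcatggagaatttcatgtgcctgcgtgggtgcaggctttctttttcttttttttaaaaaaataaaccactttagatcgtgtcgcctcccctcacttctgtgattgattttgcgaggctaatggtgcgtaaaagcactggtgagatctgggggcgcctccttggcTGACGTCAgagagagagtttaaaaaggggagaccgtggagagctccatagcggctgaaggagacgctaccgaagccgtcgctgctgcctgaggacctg
Pdyn promoter: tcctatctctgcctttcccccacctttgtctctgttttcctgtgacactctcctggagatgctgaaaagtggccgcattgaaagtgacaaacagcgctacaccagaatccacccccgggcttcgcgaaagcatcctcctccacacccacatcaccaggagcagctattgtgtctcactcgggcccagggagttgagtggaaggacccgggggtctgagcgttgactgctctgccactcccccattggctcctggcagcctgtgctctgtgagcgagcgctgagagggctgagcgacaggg
The Sst promoter held the palindrome, which 588 of 32851 promoters (1.79%) contain. The core was present once in the Cck promoter, 47 bases before the start site. It also occurred in the promoters of Vip, Tac1 and Adcyap1, and in 6837 of all promoters (20.8%). Neither Pdyn promoter held these letters, nor did those of Npy and Tac2.

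The libraries held 20018234 to 37149112 counts assigned to genes, and the totals did not differ between groups beyond their spread (exact two-sided permutation test, p = 0.515). Of all genes 18847 passed the filter of at least 5 counts in at least 6 libraries, and 4182 of them (22.2%) were called between groups by edgeR's quasi-likelihood test at a Benjamini-Hochberg adjusted p under 0.05. Higher calls made up 11.5% and lower calls 10.7% of the tested genes. Control replicate 1, with the fewest counts, stood apart on the second principal component, at 26.4 against -11.2 to 10.1 in the other controls. Marker genes of neurons, astrocytes and oligodendrocyte-lineage cells were all detected. Mature microRNA is not captured by poly(A) selection, so the level of miR-148a-3p itself was not measured in these libraries.

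Levels of the neuropeptide genes were first ordered per length, as counts per 1000000 (CPM) per kilobase of exon in the control group. Cck was the most abundant at 62.0 ± 7.80 (SD, n = 6), higher than 96.9% of tested genes. Sst followed at 16.7 ± 2.38 and Npy at 15.6 ± 1.88 (SD, n = 6), and their libraries overlapped. Penk, at 3.42 ± 0.449, and Pdyn, at 2.71 ± 0.261 CPM per kilobase, lay near the middle of all tested genes and overlapped as well. Adcyap1 stood alone at 1.72 ± 0.137. Vip at 0.668 ± 0.237, Tac2 at 0.339 ± 0.0887 and Tac1 at 0.256 ± 0.0638 formed a low range in which each neighbour overlapped the next. Crh, at 0.0288 CPM per kilobase, was near 0. The group means followed the same order in the mimic group.

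**Figure D1:**
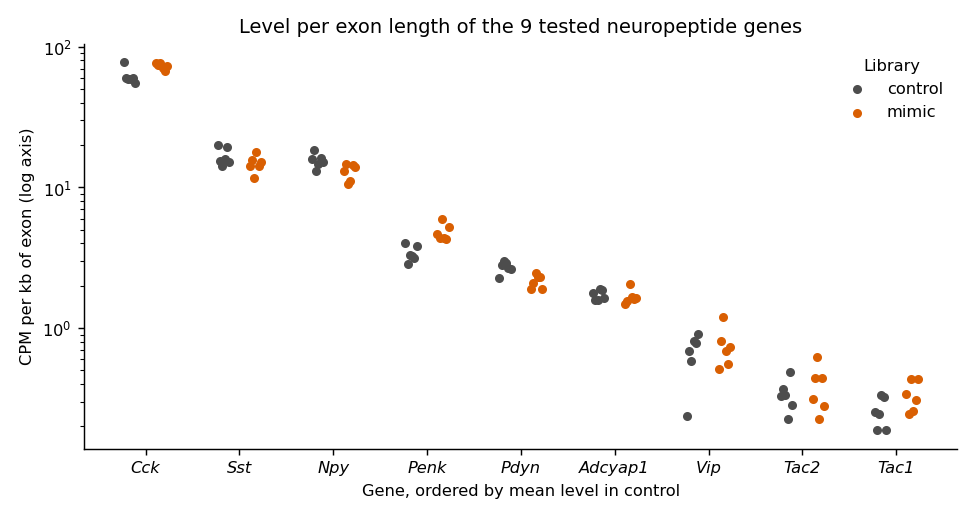
Levels per length of the 9 tested neuropeptide genes, in CPM per kilobase of exon on a log axis, with 1 point per library (6 control, 6 mimic). Cck sits above all others, Sst and Npy share a range, and Vip, Tac2 and Tac1 form the low end; Crh is not drawn because it is at 0 in some libraries.

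Of the 10 genes, 9 passed the filter, and of these Penk and Cck were higher and Pdyn was lower in the mimic group. Penk, the precursor of enkephalins, had the largest difference of the called members, and Pdyn, the precursor of dynorphins, moved the opposite way. Npy, Sst, Vip, Tac1, Tac2 and Adcyap1 were not called at this threshold. The 2 higher and 1 lower calls among 9 genes stand beside 11.5% and 10.7% of all tested genes, and with 9 genes these shares do not set the members apart. The median log2 fold change of the 9 genes was 0.14 against -0.01 for all tested genes. Penk was the 1 member whose groups did not overlap in CPM, a pattern shown by 13.3% of tested genes. By DESeq2 Npy was called lower as well, where 26.4% of all genes with an adjusted p were called.

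**Figure D2:**
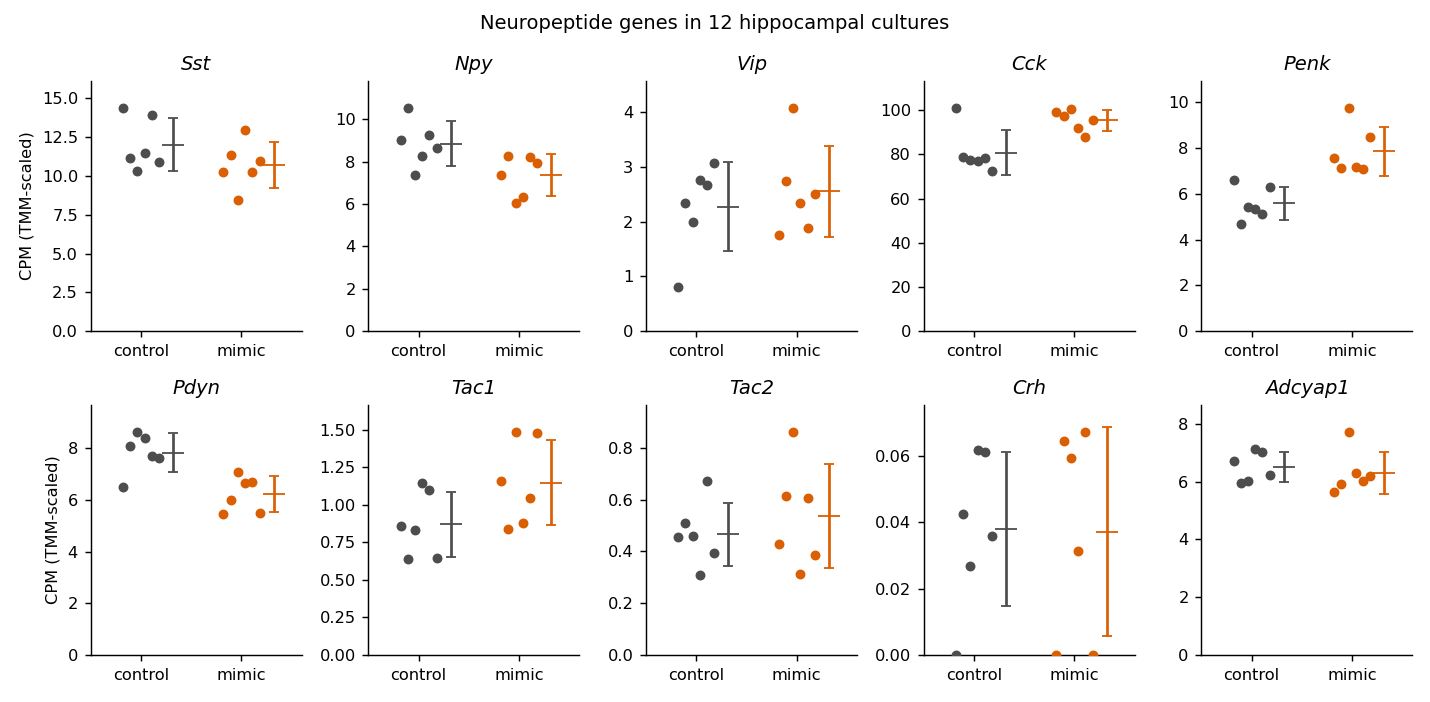
CPM of each of the 10 neuropeptide genes in the 12 libraries, with 1 dot per library and the mean with its SD beside each group. The Penk groups are apart, those of Cck and Pdyn meet through control replicate 1, and Crh never exceeds 2 counts.

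The question of the comparison was which messenger RNAs differ when the level of miR-148a-3p is raised. Penk (ENSMUSG00000045573) lies on the minus strand at chr4:4133531-4138819 and codes for the precursor of the enkephalins, the main ligands of delta and mu opioid receptors. The Penk level ran from 4.67 through a median of 5.38 to 6.62 CPM in the control libraries and from 7.08 through 7.37 to 9.76 CPM in the mimic libraries. Every mimic library lay above every control library, and mimic replicate 3 was the highest. The log2 fold change was 0.50 (SE 0.0973, 95% interval 0.30 to 0.71, edgeR adjusted p = 0.001). It stayed between 0.43 and 0.55 when any 1 of the 12 libraries was left out, and was 0.51 without control replicates 1 and 2. Penk shares 233 bases of exon with A830012C17Rik on the opposite strand, which held a mean of 0.6 counts; the strand setting of the counting is not given in the sources used here.

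Pdyn (ENSMUSG00000027400; minus strand, chr2:129686565-129699844) codes for the precursor of dynorphins, which act on the kappa opioid receptor. Its level ran from 6.51 through a median of 7.89 to 8.65 CPM in controls and from 5.46 through 6.34 to 7.08 CPM with the mimic. All 6 mimic libraries were below the control mean, and the groups overlapped through control replicate 1, the lowest control. Pdyn fell by 0.33 on the log2 scale (SE 0.082, 95% interval -0.51 to -0.16, edgeR adjusted p = 0.00642), and the difference was -0.37 without control replicate 1. It is also the member with the seed match shown above; whether the match played a part was not tested.

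Set against each other within a library, the opioid precursors gave a ratio of Penk to Pdyn CPM that was higher in every mimic library than in any control. The ratio is not per length, so it compares libraries and not the genes. In control libraries it ran from 0.579 to 1.02, with a mean of 0.725 ± 0.165 (SD, n = 6). In mimic libraries it ran from 1.06 to 1.55, with a mean of 1.27 ± 0.198 (SD, n = 6). The ranges did not overlap, and control replicate 1 was the highest control. This ratio was formed after both values were seen and is given as a description without a test.

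**Figure D3:**
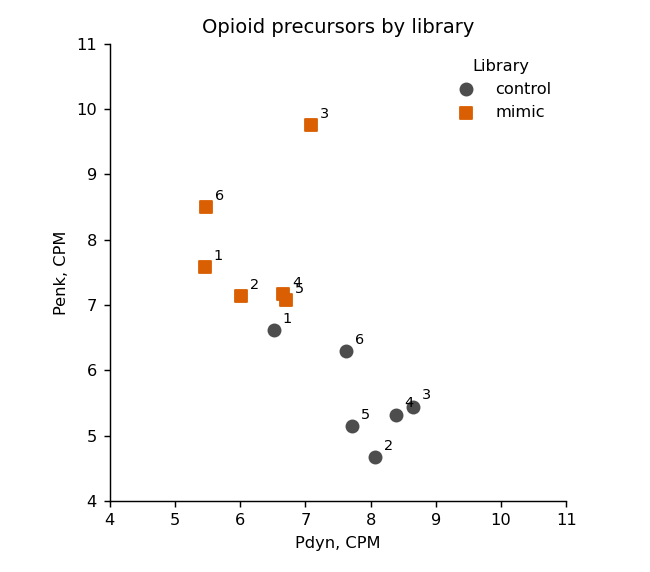
Penk against Pdyn in CPM, 1 point per library numbered by replicate. The 6 mimic libraries lie higher on the Penk axis than all controls and mostly lower on the Pdyn axis; control replicate 1 lies among the mimic libraries on the Pdyn axis.

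Cck (ENSMUSG00000032532; minus strand, chr9:121489824-121495694) codes for cholecystokinin, a peptide of both perisomatic interneurons and pyramidal neurons. Its level was 72.6 to 101 CPM in control libraries, with a median of 77.9, and 88.0 to 100.4 CPM in mimic libraries, with a median of 96.4. All 6 mimic libraries lay above the control mean of 80.9 CPM. The other controls lay below all mimic libraries, while control replicate 1, at 101 CPM, lay above them. The log2 fold change was 0.24 (SE 0.0645, 95% interval 0.11 to 0.38, edgeR adjusted p = 0.0114). Without control replicate 1 it was 0.31 (adjusted p = 1.72e-06), and Cck was called higher with any 1 of the 12 libraries left out.

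Npy (ENSMUSG00000029819; plus strand, chr6:49822710-49829507) codes for neuropeptide Y, an inhibitory peptide of interneurons. Control libraries held 7.36 to 10.5 CPM with a median of 8.83, and mimic libraries 6.04 to 8.27 CPM with a median of 7.66. All 6 mimic libraries lay below the control mean, but the groups overlapped. The log2 fold change of -0.26 (SE 0.0952, 95% interval -0.46 to -0.06) did not pass the threshold by edgeR (adjusted p = 0.0618), and it passed narrowly by DESeq2 (adjusted p = 0.0455) and without the filter on low counts (adjusted p = 0.0418). With 1 library left out the adjusted p ranged from 0.0288 to 0.15, and the call was made in 2 of the 12 cases, without control replicate 3 and without mimic replicate 2.

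Sst (ENSMUSG00000004366; minus strand, chr16:23889573-23890958) codes for somatostatin, the peptide of dendrite-targeting interneurons. It held 10.3 to 14.4 CPM in controls (median 11.3) and 8.48 to 13.0 CPM with the mimic (median 10.6). The groups overlapped broadly, and the log2 difference of -0.16 (SE 0.0998, 95% interval -0.37 to 0.05) was not called (edgeR adjusted p = 0.291); with 1 library left out it ranged from -0.22, without mimic replicate 4, to -0.10, without mimic replicate 3. Vip (ENSMUSG00000019772; plus strand, chr10:5639218-5647617) codes for vasoactive intestinal peptide, found in interneurons that contact other interneurons. Vip ranged from 0.808 to 3.08 CPM in controls (median 2.499) and from 1.75 to 4.08 CPM with the mimic (median 2.42). Its lowest value was in control replicate 1 and its highest in mimic replicate 3, and the log2 difference of 0.14 had a 95% interval of -0.37 to 0.66 (edgeR adjusted p = 0.739). With 1 library left out it ranged from -0.04 (mimic replicate 3) to 0.24 (control replicate 6).

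Tac1 (ENSMUSG00000061762; plus strand, chr6:7554879-7565834) is the precursor of substance P and neurokinin A, and Tac2 (ENSMUSG00000025400; plus strand, chr10:127724478-127731768) that of neurokinin B. Tac1 held 0.637 to 1.15 CPM in controls (median 0.847) and 0.840 to 1.49 CPM with the mimic (median 1.10), overlapping, with a log2 difference of 0.38 (95% interval -0.03 to 0.78, edgeR adjusted p = 0.188). Tac2 held 0.309 to 0.673 CPM in controls (median 0.456) and 0.313 to 0.863 CPM with the mimic (median 0.519). Its log2 difference of 0.21 (95% interval -0.33 to 0.75, edgeR adjusted p = 0.635) ranged from 0.01 (mimic replicate 3 left out) to 0.36 (control replicate 5 left out). Both tachykinin genes rested on 9 to 50 counts per library, and differences smaller than these intervals were not detectable at this depth.

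Adcyap1 (ENSMUSG00000024256; plus strand, chr17:93199017-93206537) codes for PACAP, which raises cyclic AMP in neurons and glia. It ranged from 5.95 to 7.12 CPM in controls (median 6.47) and from 5.63 to 7.74 CPM with the mimic (median 6.11). Mimic replicate 3 was alone at the top, and the log2 difference was -0.05 with a 95% interval of -0.22 to 0.13 (edgeR adjusted p = 0.755). With 1 library left out it ranged from -0.11, without mimic replicate 3, to -0.02, without mimic replicate 1. Crh (ENSMUSG00000049796; minus strand, chr3:19693401-19695396), the precursor of corticotropin-releasing hormone, had 0 to 2 counts in every library and 7 counts in all in each group. It was below the filter, and no fold change is given.

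**Figure D4:**
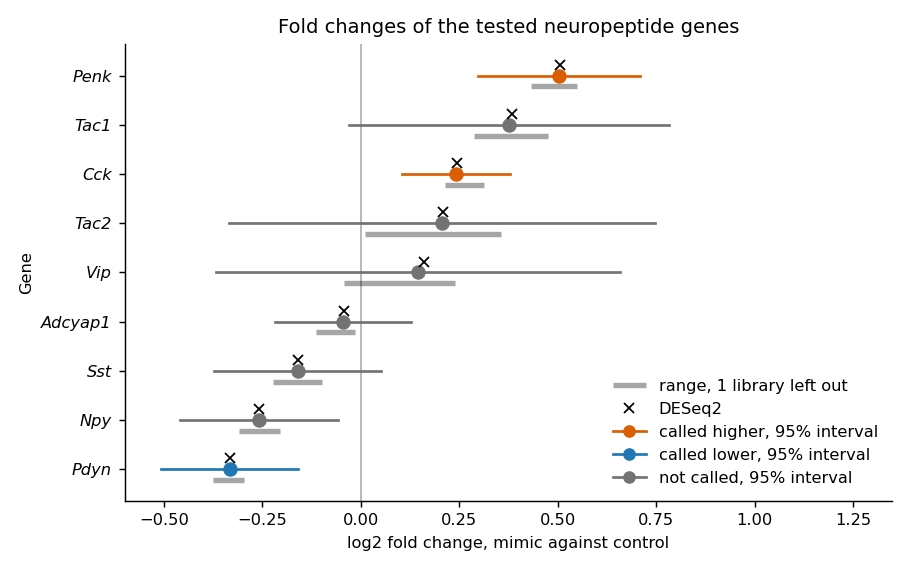
log2 fold change of the 9 tested genes, mimic against control, with the 95% interval (line), the range over fits with 1 library left out (grey bar) and the DESeq2 value (cross). Intervals of Penk, Cck, Pdyn and Npy lie off 0, and of these Npy alone missed the adjusted threshold.

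Single libraries weighed on these values. Mimic replicate 3, the mimic library with the most counts, was the highest of its group for Vip, Cck, Penk, Pdyn, Tac1, Tac2 and Adcyap1, and the lowest for Sst and Npy. Control replicate 1 was the highest control for Sst, Cck and Penk and the lowest for Vip and Pdyn. None of the 3 calls depended on either library.

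Since several of these peptides belong to interneurons, their levels were also set against the summed CPM of Gad1, Gad2 and Slc32a1, the enzymes and the vesicular transporter that mark GABAergic neurons. That sum was 280 ± 11.4 CPM in controls and 292 ± 5.50 CPM with the mimic (SD, n = 6), and Gad2 was called higher by 0.14 on the log2 scale (edgeR adjusted p = 0.0129). Gad1 (0.04, adjusted p = 0.391) and Slc32a1 (-0.11, adjusted p = 0.485) were not called. For every 1000 CPM of the sum there were 17.9 to 22.5 CPM of Penk in controls and 24.4 to 33.3 with the mimic, again without overlap. For Cck there were 255.7 to 343.4 in controls and 311.5 to 344.1 with the mimic, with overlap. For Pdyn there were 22.1 to 30.9 in controls and 18.3 to 24.2 with the mimic, also with overlap. For Npy there were 26.1 to 40.3 in controls and 20.6 to 29.1 with the mimic, and for Sst a mean of 42.9 ± 5.23 against 36.7 ± 4.95 (SD, n = 6), both with overlap. In bulk RNA a smaller number of cells of a type and less RNA per cell cannot be told apart.

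The summed levels of marker lists did not overlap between groups for astrocytes, oligodendrocyte-lineage cells and pan-neuronal genes, and overlapped for the other 4 cell type lists. Over all tested genes 11.5% were called higher and 10.7% lower, and the counts below stand beside these shares. Of 18 astrocyte markers 12 were higher and 3 lower, with a summed level of 8836 to 9895 CPM in controls and 10120 to 10710 CPM with the mimic; Slc1a3, a glutamate transporter, had a log2 fold change of 0.99 and Gfap, an astrocyte filament, one of -0.90. Of 11 oligodendrocyte-lineage markers 6 were higher and 1 was lower, with a summed level of 430 to 725 CPM in controls and 812 to 1005 CPM with the mimic; the lower count was 0 with control replicate 6, mimic replicate 1 or mimic replicate 2 left out or with no filter, and 2 with control replicate 1 or 3 left out. Of 16 pan-neuronal markers 1 was higher and 6 were lower, at 10700 to 11260 CPM in controls and 10230 to 10570 CPM with the mimic; the higher call was lost without any 1 of control replicates 2 to 6 and mimic replicates 1, 2, 5 and 6. The 31 GABAergic markers had 7 higher and 6 lower and overlapped in sum, at 1867 to 2111 CPM and 1939 to 2005 CPM. The 18 glutamatergic markers (1 higher, 7 lower) overlapped too, at 4663 to 5075 CPM and 4890 to 5058 CPM. In this list 2 were higher with control replicate 1 or 5 or control replicates 1 and 2 left out, with no filter or with a replicate block. Of 12 microglial markers 0 were higher, by edgeR, by DESeq2 and at an unadjusted p under 0.05, and 3 were lower, at 29.0 to 32.8 CPM and 27.5 to 46.9 CPM. Of 12 tested mesenchymal and vascular markers 1 was higher and 2 were lower, at 206 to 274 CPM and 105 to 233 CPM; 4 were lower with mimic replicate 4 left out. No marker of these cell types was at 0 in all libraries, and the part of these lists in the neuropeptide differences was not tested.

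Receptors of the 10 peptides were taken as the next step of the pathway. Of 22 receptor genes 17 were tested, and 5 were higher and 0 lower in the mimic group. These counts stand beside 11.5% higher and 10.7% lower of all tested genes, and the median log2 fold change was 0.04. By DESeq2 4 were higher and 0 lower, with no adjusted p given for Npy5r, and at an unadjusted p under 0.05 the lower direction held 1, Npy2r (-0.34, adjusted p = 0.13); without control replicate 1 the number of receptors called lower was 2. Cckbr, the main brain receptor of cholecystokinin, was called higher like its ligand gene, from 5.11 to 6.51 CPM in controls to 6.55 to 8.57 CPM with the mimic, without overlap (log2 fold change 0.38, edgeR adjusted p = 0.00143). Sstr3, a somatostatin receptor of neuronal cilia, held a mean of 22.1 CPM in controls and 27.2 CPM with the mimic, also without overlap (0.30, adjusted p = 0.000413). Vipr1, a receptor of VIP and PACAP, differed by 0.35 and Adcyap1r1, the PACAP receptor, by 0.15. Npy5r, a neuropeptide Y receptor, had a log2 fold change of 1.21 on a mean of 5.83 counts per library. Opioid receptors were scarce: Oprm1 held a mean of 0.216 CPM in controls and 0.217 CPM with the mimic, Oprd1 0.643 and 0.737 CPM, neither was called, and Oprk1, the receptor for dynorphins, was below the filter.

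The 24 genes of prohormone processing and dense-core vesicles were all tested, and 3 were higher and 1 lower. Beside 11.5% higher and 10.7% lower of all tested genes, these counts do not set the list apart. The median log2 fold change was 0.02. Pcsk1, the convertase that makes the first cuts in many precursors, ran from 30.9 to 39.9 CPM in controls and from 41.8 to 47.9 CPM with the mimic, without overlap (log2 fold change 0.34, edgeR adjusted p = 0.000295). Pam, which amidates peptide ends, had a log2 fold change of 0.16 and Ctsl, a protease that also cuts precursors, one of 0.35. Cadps2, a priming factor for dense-core vesicle release, had -0.18. The convertase Pcsk2 (-0.04) and the carboxypeptidase Cpe (0.01) were not called. The count of higher genes was 6 without control replicate 1 and 9 without control replicates 1 and 2. The count of lower genes was 2 by DESeq2, with a replicate block, and with control replicate 1 or 6 or mimic replicate 5 left out. It was 3 without control replicates 1 and 2.

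Of 14 tested peptide-degrading enzymes and binding proteins 5 were higher and 3 lower, beside 11.5% and 10.7% of all tested genes. The median log2 fold change was 0.06. Mme, neprilysin, which degrades enkephalins and somatostatin, held a mean of 7.87 CPM in controls and 4.11 CPM with the mimic (log2 fold change -0.95, edgeR adjusted p = 0.000287), and Ace, an enzyme with a related activity, had a log2 fold change of -0.64. Ece1, endothelin-converting enzyme, had 0.49 and Ide, insulin-degrading enzyme, 0.22. Enpep, an aminopeptidase named after its value was seen, had the highest log2 fold change of the list, 1.63 on a mean of 6.92 counts per library. Crhbp, which binds corticotropin-releasing hormone, differed by 0.43 and was not called (adjusted p = 0.0506). Of 44 further neuropeptide precursors 20 were tested, with 3 higher and 1 lower, beside the same 11.5% and 10.7%. Their median log2 fold change was 0.16. Apln, the precursor of apelin, had a mean of 4.65 CPM in controls and 11.7 CPM with the mimic (1.32, adjusted p = 1.1e-09), Grp, gastrin-releasing peptide, had a log2 fold change of 0.49, and Nucb2, the precursor of nesfatin, had -0.15 and lost its call without the filter on low counts and without any 1 of control replicates 3, 4 and 6 and mimic replicates 1, 3 and 5. The higher count in this list was 6 without control replicate 1.

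**Figure D5:**
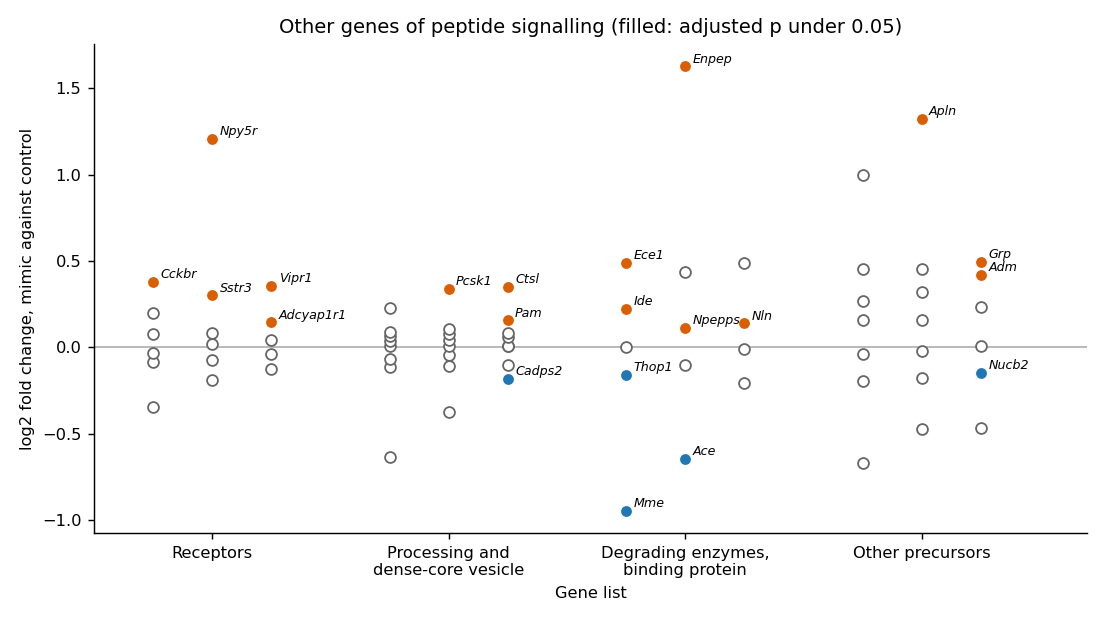
log2 fold changes of the tested receptor, processing, degradation and other precursor genes, 1 point per gene, filled where the edgeR adjusted p is under 0.05. Called receptors all lie above 0, while Mme and Ace lie lowest and Enpep highest among the degrading enzymes, and Apln stands at the top of the other precursors.

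Seed matches in these companion genes were counted as for the members. They were present in the longest 3′ UTR of 2 of the 17 tested receptors, Vipr1 and Cckbr, both of which were higher with the mimic. Of the processing genes 3 of 24 held a match (Cpd, Ctsl and Rab27b), of the degrading enzymes and binding proteins 3 of 14 (Ece2, Lnpep and Enpep), and of the other precursors 4 of 20 (Nppc, Gnrh1, Apln and Pnoc). Of these further genes with a match Ctsl, Enpep and Apln were called higher, and the others were not called. The share of genes with a match over all tested genes was 21.9%.

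Lastly, genes that followed a member from library to library were named, by the Pearson correlation of log2 CPM after centring on the group means, over all 12 libraries among genes whose mean count was 100 or more. The points share library depth and preparation, and each gene named had one of the highest values in a search over all such genes. High values can come from that search alone, so they are a description and were not tested. Cck was followed by Cxcl14 (0.959) and Chrm4 (0.947). Its level in control replicate 1 was 101 CPM against 72.6 to 78.9 CPM in the other controls, and the correlations without that library were not computed. Pdyn was followed by Igfbp5 (0.94), Tfcp2l1 (0.934) and Fzd6 (0.929). Penk was followed by Tceal1 (0.927), Ncald (0.909) and Arhgap26 (0.883). The nearest gene was Mpped1 for Sst (0.863), Ssr4 for Npy (0.879), Eif4a1 for Vip (0.953), Rbm24 for Tac1 (0.9) and Grp, itself a peptide gene, for Adcyap1 (0.875).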

How the data were processed

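RNA of 12 cultures (6 control, 6 mimic, grouped by the submitters' labels) was sequenced as 50 bp single-end reads from poly(A) libraries. The authors aligned reads with STAR 2.5.2b to mm10 and deposited raw counts per gene from featureCounts (Subread 1.5.1); the strand setting is not given in the sources used here. The deposited table of normalized values for the whole series was not used. From the counts, edgeR 4.0.16 (R 4.3.3, TMM scaling, robust quasi-likelihood F-test) was fitted across all genes that reached 5 counts in 6 or more of the 12 libraries, the filter of the study, with Benjamini-Hochberg adjustment over all 18847 genes tested and a threshold of 0.05. The study used DESeq2, which served here as an alternative (DESeq2 1.42.0). The SE is the log2 fold change divided by the square root of F, and 95% intervals use the t distribution of the fit. CPM is counts per 1000000 by TMM-scaled library size, and lengths and 3′ UTRs came from the GENCODE M21 annotation.

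All 10 members are named. The members and all companion and marker lists were chosen with earlier results of these data known. In each companion list the 2 genes with the largest fold change called in each direction, with a mean of at least 100 counts, could be named; for receptors and processing genes up to 6, without that minimum; Gad1, Gad2, Slc32a1, Crhbp, Pam, Pcsk1, Pcsk2 and Cpe always. Oprm1, Oprd1 and Oprk1 were added after their values were seen. Predicted genes were left out of the nearest-gene ranking. Some genes that these rules name are not reported here. Library totals were compared by an exact permutation test over 924 relabellings. The steps were tested on simulated data. Alternatives were DESeq2, RLE scaling, no filter, a replicate block, each library left out, and control replicates 1 and 2 left out.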

Additional observations from a re-analysis of the deposited data

Results flagged for a closer look

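In the control group the Cck level of replicate 1 was 101 CPM, far from the other controls at 72.6 to 78.9 CPM. In the mimic group the Adcyap1 level of replicate 3 was 7.74 CPM, far from the others at 5.63 to 6.29 CPM. These were the 2 cases among 24 groups of 6 values examined by Dixon's ratio of gap to range (0.781 and 0.687, both above the critical value), a rule by which chance marks about 5% of groups.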

How the results depend on the processing

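Penk and Cck were called higher and Pdyn lower in every alternative run, so the number of members called higher was 2 throughout. The number called lower was 2 instead of 1 under DESeq2, without the filter and with the replicate block, because Npy passed: its log2 fold change was -0.26 by DESeq2 (adjusted p = 0.0455), -0.26 without the filter (adjusted p = 0.0418) and -0.27 with the block (adjusted p = 0.0105). With 1 library left out the number called lower ranged from 1 to 2 and the Npy value from -0.31 to -0.20. The Vip value ranged from -0.0434 to 0.240 with 1 library left out and was -0.0174 without control replicates 1 and 2; it was never called. Slc32a1 turned to 0.00501 without control replicates 1 and 2, and Cpe ranged from -0.0001204 to 0.0444 with 1 library left out, neither being called. Of 408 counts of the other lists 367 stayed within 1.5 times their value. The causes of these moves were not tested. Replicate numbers did not pair the samples: correlations of same-numbered deviations ran from -0.107 to 0.227 and no control correlated best with its own number, so the block rests on a shared number only. Depth limits Tac1, Tac2 and above all Crh.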

Other observations

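Interneuron marker genes other than the peptides differed in both directions. Ndnf, a marker of neurogliaform cells, had a log2 fold change of 0.39, while Calb2 (calretinin) had -0.25 and Nos1 (neuronal nitric oxide synthase) -0.24. Pvalb, which marks fast-spiking basket cells and was singled out after its values were seen, held a mean of 3.25 CPM in controls and 1.83 CPM with the mimic (-0.85, edgeR adjusted p = 0.000538). The Pvalb groups overlapped, at 2.17 to 4.05 CPM in controls and 1.23 to 2.32 CPM with the mimic.

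Of 24 activity and cyclic AMP-responsive regulators 9 were higher and 3 lower with the mimic, beside 11.5% and 10.7% of all tested genes. Their median log2 fold change was 0.11, and 5 were lower with control replicate 4 left out. Btg2 had 0.81 and Arc 0.59, while Egr2 and Fos had -0.77 and -0.28, so immediate early genes were called in both directions. Of the regulators that act at the CRE, Atf1 was called higher (0.21, edgeR adjusted p = 0.0445). Crem and Creb1 differed by 0.11 and 0.11 and were not called (adjusted p = 0.233 and 0.41). The CREB coactivators Crtc1, Crtc2 and Crtc3 differed the other way, by -0.07, -0.08 and -0.13, and were not called (adjusted p = 0.546, 0.277 and 0.0776). Atf1, Crem, Creb1 and the Crtc genes were named after their values were seen.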
